A study of Mus musculus with 12 samples.

Results

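Wild-type (WT) induced regulatory T cells (iTreg) were set against Th1 and Th2 cells in 5 of the 12 libraries of the study: 3 WT iTreg, 1 Th1 and 1 Th2. The cells of all 5 were sorted as naive CD4+ T cells (by surface markers that included absent CD44 and CD25) from spleen and lymph nodes of C57BL/6J mice and grown for 3 days on plate-bound anti-CD3 and anti-CD28, each at 10 μg/ml. WT iTreg cultures held 5 ng/ml human TGF-β1 and 100 IU/ml IL-2. The Th1 culture held 20 ng/ml IL-12 and 10 μg/ml of a blocking antibody to IL-4, the Th2 culture 20 ng/ml IL-4 and 10 μg/ml of one to IFN-γ. Neither TGF-β1 nor added IL-2 is listed for the Th1 and Th2 cultures, so the iTreg cytokines, the helper cytokines and the blocking antibodies cannot be told apart as sources of a difference. A locus belonged to the comparison when its 3 WT iTreg values all lay above, or all below, both the Th1 and the Th2 value. That held for 9248 of 11430 loci tested (80.9%), 4647 higher (40.7%) and 4601 lower (40.3%) in WT iTreg, out of 23700 loci in each file. Levels are in FPKM, fragments scaled to transcript length and to the library's mapped total. Differences are on the log2(FPKM + 0.5) scale, where 1 is 2-fold at high levels and more than 2-fold in FPKM at levels near 0.

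TGF-β signals through a pair of receptor kinases to Smad proteins, and in naive CD4+ T cells given antigen receptor stimulation and IL-2 it induces Foxp3, the transcription factor that defines regulatory T cells. IL-12 directs such cells to the Th1 fate through T-bet (Tbx21), and IL-4 to the Th2 fate through GATA3. Activated helper T cells grow and divide fast and take up much glucose, which they ferment to lactate, while naive and resting T cells circulate between blood and lymph nodes and divide little.

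Libraries differed in more than culture. Xist, the RNA that coats the inactive X chromosome of female cells, was at most 0.00949 FPKM in the WT iTreg libraries, against 134 in Th1 and 156 in Th2. The Y-linked gene Eif2s3y stood at 68.9, 55.6 and 62.6 FPKM in the WT iTreg libraries and was listed at 0 in Th1 and Th2. Xist was also on in the Th17 and naive libraries, at 90.4 and 48.7 FPKM. The WT iTreg libraries thus held transcripts of male cells and the Th1, Th2, Th17 and naive libraries those of female cells, while the labels give no sex, so the sex of the mice and the culture cannot be told apart. With loci on X and Y left out, 4527 higher and 4416 lower loci remained separated of 11053 tested. Reads implied by the deposited confidence intervals came to between 18200000 and 19100000 in WT iTreg, 13900000 in Th1 and 14000000 in Th2. These sums cover only expressed loci with a single listed start site and a valid estimate, so they are not full library depths. Summed FPKM over all loci came to between 432450 and 437849 in WT iTreg, 464264 in Th1 and 472069 in Th2. Over loci of at least 300 bp, from which the tested loci were taken, it was between 328179 and 333348 in WT iTreg, 399135 in Th1 and 389309 in Th2. The labels do not say that the 3 WT iTreg libraries came from separate mice or cultures, so p-values measure the spread between these samples only, which may be technical.

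The labelled cell type was checked against its markers. Cd3e, a chain of the T cell receptor complex, stood at 223, 226 and 223 FPKM in WT iTreg, against 242 in Th1 and 199 in Th2. Cd4 was at 145, 139 and 156 FPKM in WT iTreg, against 237 and 249 in Th1 and Th2. Both are thus present at high level in each of these 5 libraries, though Cd4 was called lower in WT iTreg. Of 11 pan-T cell markers tested 4 were called higher (36.4%, beside 34.6% of all loci) and 3 lower (27.3%, beside 34.3%). A trace of B cell transcripts was uneven in the WT iTreg libraries: the 11 B cell markers listed summed to 67.9, 11.8 and 37.8 FPKM there, against 1.13 in Th1 and 2.41 in Th2. The MHC class II gene H2-Aa followed the same order among WT iTreg libraries, at 49.7, 5.67 and 22.5 FPKM, against 0.218 in Th1 and 0.322 in Th2. H2-Ab1, also of MHC class II, had that order too but was called lower, at 45.1, 4.34 and 19.7 FPKM in WT iTreg, against 97.2 in Th1 and 117 in Th2. Of the 7 B cell markers tested, 5 were called higher (71.4%, beside 34.6% of all loci), among them Ms4a1, Cd79a, Cd79b and Ly6d. With helper levels this low, such a marker could enter the test mainly through its WT iTreg level. The count therefore describes the tested members and no more. The part of B cells in other differences was not tested. The myeloid markers Lyz1, Lyz2, S100a8 and S100a9 were listed at 0 in all 5 libraries. Of the 2 myeloid markers tested, Itgam was called higher in WT iTreg (difference 2.70) and the other was not called (−0.95). The 12 myeloid markers listed summed to between 7.07 and 7.59 FPKM in WT iTreg, against 13.3 in Th1 and 4.75 in Th2. The 12 dendritic cell and MHC class II markers summed to 251, 29.7 and 123 FPKM in WT iTreg, against 136 in Th1 and 207 in Th2, while Clec9a, which defines cross-presenting dendritic cells, was listed at 0 in all 5. The 7 CD8, NK and γδ T cell markers summed to between 5.26 and 6.18 FPKM in WT iTreg, against 8.07 and 8.18 in Th1 and Th2, and the 10 mast and erythroid markers to between 3.56 and 3.87, against 3.20 and 1.69. In bulk RNA, fewer cells that express a gene and less of its RNA per cell cannot be told apart.

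The difference between WT iTreg and the helper cultures took in most of the measured transcriptome. With limma on log2(FPKM + 0.5), 7871 of 11430 loci (68.9%) passed a Benjamini-Hochberg adjusted p of 0.05, 3956 higher (34.6%) and 3915 lower (34.3%) in WT iTreg, and all 7871 were separated. Of these, 1483 were higher and 1979 lower by at least 2-fold, and 53 and 87 by at least 16-fold. The median locus lay 0.62 from Th1 and 0.66 from Th2, against 0.22 between Th1 and Th2 and an SD of 0.069 among the WT iTreg replicates. The spread of the helper class holds the difference between Th1 and Th2, so a gene high in only one of them has a large standard error (SE). Th1 and Th2 lay within 0.5 of each other at 87.4% of the loci called higher, 79.2% of those called lower and 79.4% of all tested. Across tested loci, which are not independent replicates and share their libraries, Pearson's r of WT iTreg levels was between 0.791 and 0.802 with Th1, between 0.767 and 0.779 with Th2, between 0.874 and 0.882 with Th17 and 0.914 with freshly sorted naive cells, while Th1 and Th2 had 0.951. At the edge of the rule, Lats1, a Hippo pathway kinase gene, just met it at 8.28, 8.53 and 7.97 FPKM in WT iTreg, against 7.24 and 7.96 in Th1 and Th2, and Dennd4b just missed it at 27.5, 26.1 and 25.4 FPKM, against 25.4 and 23.5.

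**Figure D1:**
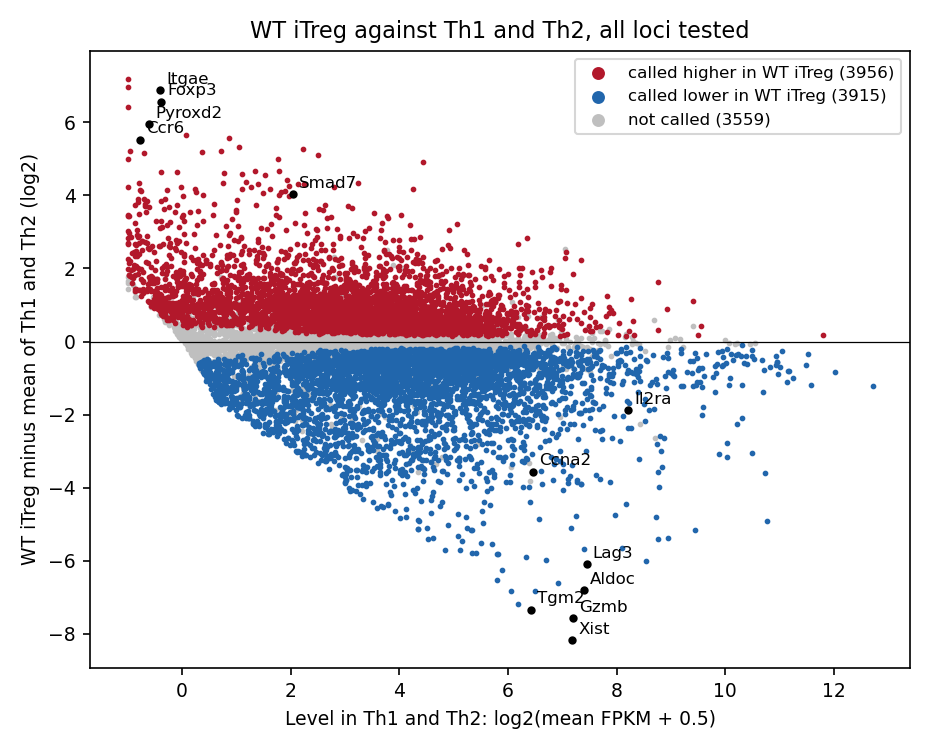
Difference between WT iTreg and the mean of Th1 and Th2 on the log2(FPKM + 0.5) scale (vertical axis) against the level in Th1 and Th2 (horizontal axis) for the 11430 loci tested, coloured by the limma call. Red and blue points are about as many, 3956 and 3915, and Foxp3 and Itgae sit at the top while Gzmb and Xist sit at the bottom.

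The 12 largest rises by the naming rule held Foxp3 itself, an integrin, a chemokine and a chemokine receptor. Foxp3 (chromosome X, 7156802 to 7172369, plus strand, mm9) had 69.6, 66.7 and 81.1 FPKM in WT iTreg, against 0.308 in Th1 and 0.226 in Th2. All 3 WT iTreg libraries were far above both helper libraries, by 6.57 (SE 0.11, limma adjusted p = 1.11e-05). Foxp3 lies on the X chromosome, whose number of copies differs between the sexes, and the part of sex in its level was not tested. Itgae, which encodes the αE integrin CD103 that binds epithelial E-cadherin (chromosome 11, 72904097 to 72960951, plus strand), had 91.1, 108 and 71.2 FPKM in WT iTreg, against 0.17 and 0.347 in Th1 and Th2, and rose by 6.89 (SE 0.21, limma adjusted p = 2.98e-05). The spread among WT iTreg libraries was small against that gap for both genes. The apolipoprotein L genes Apol9b and Apol9a stood at 77, 74.6 and 66.8 and at 45.8, 43.7 and 38.7 FPKM in WT iTreg and were listed at 0 in both helper libraries. As near-identical copies their unique reads can be split unevenly, so the separate values are uncertain. Pyroxd2, an oxidoreductase gene, had 40.8, 45.2 and 35.4 FPKM in WT iTreg, against 0.146 and 0.175 in Th1 and Th2 (difference 5.95, limma adjusted p = 1.3e-05).

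Xcl1, a chemokine for cross-presenting dendritic cells, had 42.1, 37.3 and 55.3 FPKM in WT iTreg, against 1.11 in Th1 and 0 in Th2. Ccr6, the receptor for CCL20 on Th17 and regulatory T cells, had 26.2, 22.4 and 30.6 FPKM in WT iTreg, against 0.167 in Th1 and 0 in Th2. Capn3, a calpain protease gene, had 53.8, 51.3 and 53.4 FPKM in WT iTreg, against 0.352 and 1.94 in Th1 and Th2. No helper value came near a WT iTreg value in these genes, which rose by 5.64, 5.53 and 5.21 (limma adjusted p = 0.000425, 3.49e-05 and 0.000332). D18Ertd653e had 84.1, 88.8 and 80.6 FPKM in WT iTreg, against 1.01 and 1.62 in Th1 and Th2. Ifi203, of the interferon-inducible Ifi200 family of close relatives, had 60.1, 61 and 59.9 FPKM in WT iTreg, against 2.97 in Th1 and 0.164 in Th2, beside 74 in naive cells. Eif2s3y and Ddx3y, both Y-linked, completed the group.

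The 12 largest falls by the naming rule were Xist and 11 autosomal genes of varied function. Gzmb, the granzyme B gene (chromosome 14, 56877695 to 56881097, minus strand), had 0.0783, 0.0532 and 0 FPKM in WT iTreg, against 251 in Th1 and 42.6 in Th2, and fell by 7.58 (SE 0.73, limma adjusted p = 0.000528). Tgm2, tissue transglutaminase, had 0.0189, 0 and 0.0184 FPKM in WT iTreg, against 65.5 and 104 in Th1 and Th2, and fell by 7.34 (SE 0.21, limma adjusted p = 2.59e-05). Both were near absent from WT iTreg and well expressed in either helper culture. Lif, the leukaemia inhibitory factor gene, had 0.0469, 0.111 and 0.181 FPKM in WT iTreg, against 22.1 in Th1 and 96 in Th2. The inhibitory receptor gene Lag3 had 1.95, 1.99 and 2.16 FPKM in WT iTreg, against 186 and 162 in Th1 and Th2, and the annexin gene Anxa2 had 4.65, 6.03 and 5.06, against 427 and 319. Those 3 fell by 6.26, 6.10 and 6.01 (limma adjusted p = 0.000547, 1.11e-05 and 2.52e-05). Nfil3, a basic leucine zipper factor gene, had 1.03, 0.685 and 1.05 FPKM in WT iTreg, against 49.3 and 158 in Th1 and Th2. Il12rb2, the signalling chain of the IL-12 receptor, had 0.104, 0.141 and 0.135 FPKM in WT iTreg, against 151 in Th1 and 8.7 in Th2, so it was low in WT iTreg and high mainly in the culture given IL-12. Lgals7, Stc2, Aldoc and Prelid2 were the other falls, with WT iTreg means between 0.0262 and 1 FPKM, against helper means between 66.3 and 167 FPKM.

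Genes used to describe regulatory T cells were found in both directions. The lists below share some members, and a gene low in one class could enter a test only through its level in the other, so their counts describe the tested members and no more. Of 26 listed 22 were tested, of which 4 were called higher (18.2%, beside 34.6% of all loci), 8 lower (36.4%, beside 34.3%) and 10 neither, with a median difference of −0.60, beside −0.0016 over all loci tested. The 4 were Foxp3, Itgae, Ikzf4 and Nt5e. Nt5e, the ectonucleotidase CD73 that makes adenosine, had 82.8, 87.7 and 89.1 FPKM in WT iTreg, against 13.7 in Th1 and 2.8 in Th2 (difference 3.67, limma adjusted p = 0.00346). Ikzf4, which encodes Eos, a partner of Foxp3 in repression, had 38.5, 40.2 and 37.8 FPKM in WT iTreg, against 7.34 in Th1 and 20.9 in Th2 (difference 1.60, limma adjusted p = 0.0183, and between 0.0558 and 0.0607 without any one WT iTreg replicate). Ikzf2, which encodes Helios and marks Treg of the thymus, was at 0.271, 0.245 and 0.405 FPKM in WT iTreg, against 0.762 and 0.217, too low to be tested. Nrp1, a co-receptor that can bind TGF-β, was at 17.2, 17.3 and 19.1 FPKM in WT iTreg, against 3.52 in Th1 and 16.3 in Th2, and was not called (limma adjusted p = 0.135).

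Several receptors that Treg share with activated T cells were lower in WT iTreg than in the helper cultures. Il2ra, the IL-2 receptor α chain CD25 (chromosome 2, 11564419 to 11614821, plus strand), had 72.2, 68 and 95.5 FPKM in WT iTreg, against 232 in Th1 and 361 in Th2, and 0.647 in naive cells. WT iTreg thus stood between naive and helper cells, with a difference of −1.89 from the helpers (SE 0.24, limma adjusted p = 0.00133). Ctla4, the inhibitory receptor for CD80 and CD86, had 125, 118 and 151 FPKM in WT iTreg, against 192 and 233 in Th1 and Th2, a difference of −0.69 (limma adjusted p = 0.00718). Tnfrsf9, which encodes 4-1BB, had 9.91, 6.17 and 14.3 FPKM in WT iTreg, against 354 and 516 in Th1 and Th2. Tnfrsf4 (OX40) had 41.2, 35.6 and 48.4 FPKM in WT iTreg, against 379 and 536, and Tnfrsf18 (GITR) 72.6, 62.1 and 83.6, against 371 and 521. The 3 TNF receptor genes fell by 5.41, 3.43 and 2.60 (limma adjusted p = 0.000169, 0.000106 and 0.00021). Tigit, an inhibitory receptor gene, had 0.792, 0.595 and 0.528 FPKM in WT iTreg, against 17.3 and 29.3 in Th1 and Th2, and fell by 4.35. Folr4 (folate receptor 4) and Lrrc32, which encodes GARP, the anchor of latent TGF-β on activated Treg, fell by 2.03 and 0.87. Il10 was at most 0.056 FPKM in WT iTreg, against 0.0855 in Th1 and 3.28 in Th2, and was not called.

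**Figure D2:**
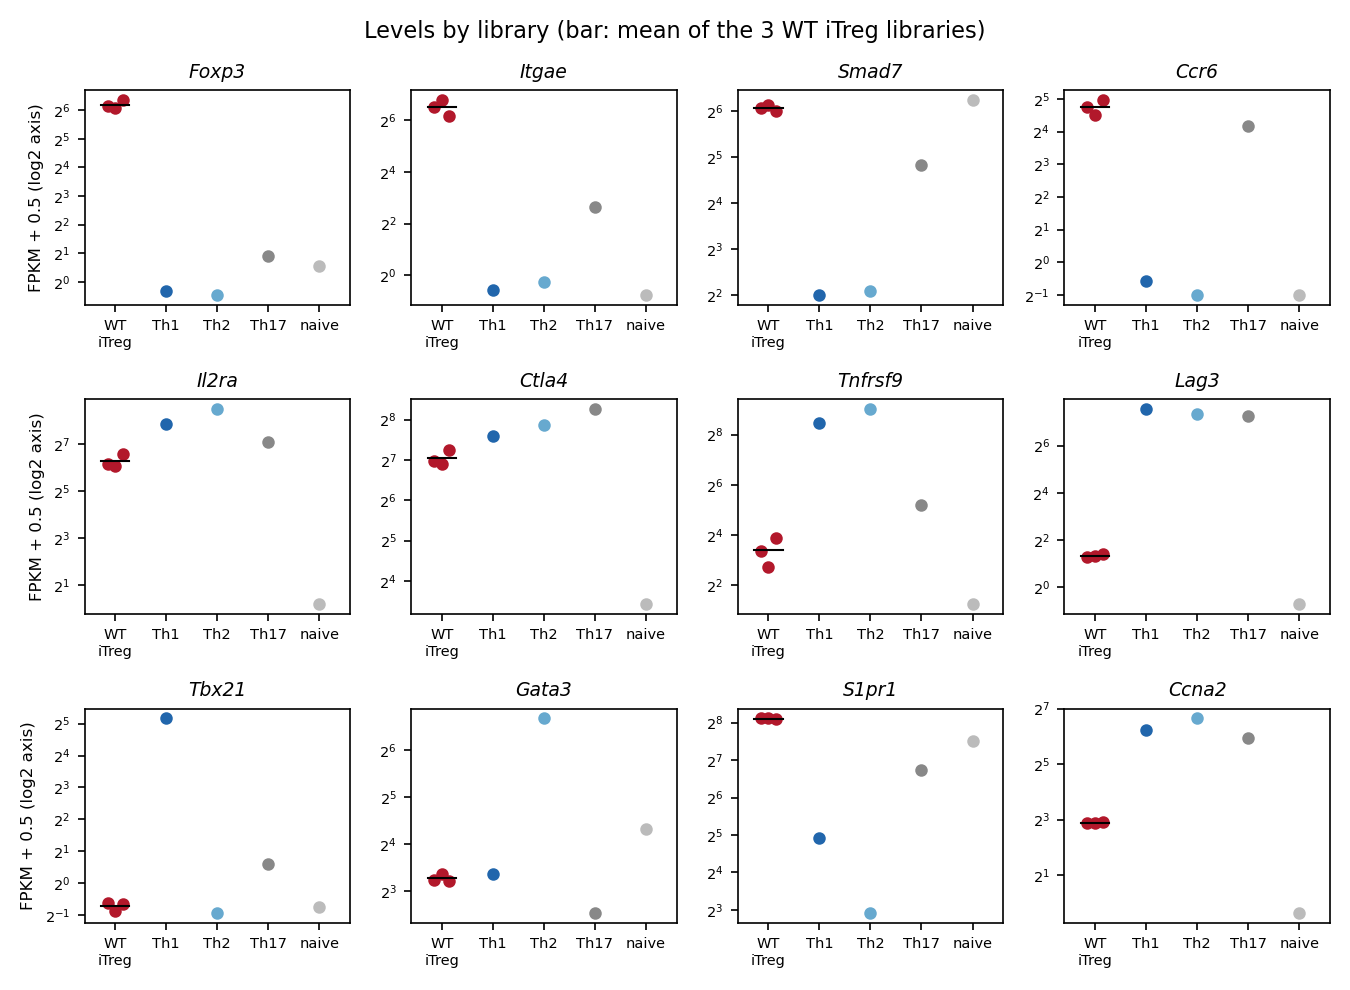
FPKM + 0.5 on a log2 axis for 12 genes in the 3 WT iTreg libraries (red, bar at their mean) and the single Th1, Th2, Th17 and naive libraries. Foxp3, Itgae, Smad7, Ccr6 and S1pr1 lie above both helper values in WT iTreg, Il2ra, Ctla4, Tnfrsf9, Lag3 and Ccna2 below both, while Tbx21 and Gata3 are raised in 1 helper library each.

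Genes of the TGF-β pathway differed on both sides. Of 29 listed 25 were tested, with 12 called higher (48%, beside 34.6% of all loci), 8 lower (32%, beside 34.3%) and a median of 0.51. The higher ones included the receptor kinases and feedback genes, and the lower ones Tgfb1, Tgfb3 and the co-receptor Tgfbr3. Both receptor kinase genes were higher: Tgfbr2 had 139.6, 137 and 122 FPKM in WT iTreg, against 18.6 and 18.8 in Th1 and Th2 (difference 2.80, limma adjusted p = 2.55e-05). Tgfbr1 had 34.7, 35 and 34.4 FPKM in WT iTreg, against 4.93 and 11.5 (difference 2.13). Tgfbr3, the co-receptor betaglycan, was lower at 6.36, 6.01 and 5.76 FPKM in WT iTreg, against 10.7 and 12.3 in Th1 and Th2. The signal carriers Smad2 and Smad3 were not called (−0.26 and 0.28), and the shared Smad4 differed by 0.51.

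Feedback inhibitors and corepressors of the pathway were raised, with Smad7 the most raised of the 12. Smad7, which blocks the type I receptor (chromosome 18, 75527019 to 75555588, plus strand), had 66.7, 69.9 and 63.6 FPKM in WT iTreg, against 3.48 in Th1 and 3.72 in Th2. That is a difference of 4.03 (SE 0.073, limma adjusted p = 1.16e-05). Smad7 stood at 74.7 FPKM in naive cells, which had no culture, and at 27.9 in Th17 cells, which also had TGF-β1 (2 ng/ml, with 20 ng/ml IL-6 and antibodies to both IFN-γ and IL-4). Pmepa1, which sequesters receptor Smads, had 19.7, 20.4 and 20.0 FPKM in WT iTreg, against 2.55 and 5.87 in Th1 and Th2, beside 18.9 in Th17 and 1.89 in naive cells. Tgif1, a Smad corepressor gene, had 36.9, 35.2 and 39.6 FPKM in WT iTreg, against 8.34 and 8.9 in Th1 and Th2, beside 36.4 in Th17 and 20.6 in naive cells. Of these 3 genes, Smad7 was high in the single naive library and Pmepa1 was not. That library held transcripts of female cells, so its values are not the starting levels of these WT iTreg cultures. The corepressor genes Ski and Skil and the ubiquitin ligase genes Smurf1 and Smurf2 were also called higher, Ski with 97.9, 95.2 and 92.2 FPKM in WT iTreg, against 18.7 and 20.1 in Th1 and Th2.

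The ligand genes tested were lower. Tgfb3 had 0.0596, 0.122 and 0.0872 FPKM in WT iTreg, against 24.4 and 23.7 in Th1 and Th2, and fell by 5.38 (limma adjusted p = 1.3e-05). Tgfb1 had 74.6, 71 and 76.1 FPKM in WT iTreg, against 95.4 and 123 in Th1 and Th2, a difference of −0.55 whose adjusted p of 0.00885 became 0.0751 with equal sums. Ltbp3, which binds latent TGF-β, and the integrin chain gene Itgav, whose product releases it, fell by 3.16 and 0.76. Id2, an inhibitor of E proteins that TGF-β represses in several cell types, had 18.7, 16.9 and 15.2 FPKM in WT iTreg, against 66.3 and 168 in Th1 and Th2 (difference −2.61).

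IL-2 was listed for the iTreg cultures only. Of 18 tested genes of its receptor and feedback loop, 10 were lower in WT iTreg (55.6%, beside 34.3% of all loci). Another 3 were called higher (16.7%, beside 34.6%), and the median was −0.98. Il2rb, the β chain, had 107, 104 and 114 FPKM in WT iTreg, against 306 and 422 in Th1 and Th2 (difference −1.72, limma adjusted p = 0.00032). Jak3, the kinase bound to the common γ chain, had 45.5, 43.2 and 47.5 FPKM in WT iTreg, against 183 and 157. The STAT5 target and feedback inhibitor gene Cish had 27.4, 31.8 and 31.7 FPKM in WT iTreg, against 76.6 in Th1 and 188 in Th2. Every one of these values was lower in each WT iTreg library than in either helper library. Socs1 and Pim2, also induced by cytokine signals, fell by 2.13 and 2.05. The members that were higher were Jak1 (1.62), Il2rg (0.40) and Il7r (1.36), which encodes the IL-7 receptor of resting T cells. Il2 itself was at most 0.568 FPKM in WT iTreg, against 0.383 in Th1 and 1.07 in Th2.

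The lineage factor genes of Th1 and Th2 were each raised in 1 helper library only, and neither differed from both helpers by the test. Tbx21 had 0.148, 0.0412 and 0.131 FPKM in WT iTreg, against 35.5 in Th1 and 0.0198 in Th2, so all 3 WT iTreg values lay under Th1 and above the near-zero Th2 value (limma adjusted p = 0.197). Against Th1 alone, with Th2 left out, it fell by 5.90 (adjusted p = 1.91e-05), where the single Th1 library is taken to vary like the WT iTreg replicates. Of 23 tested Th1 programme genes 3 were called higher (13%, beside 34.6% of all loci) and 6 lower (26.1%, beside 34.3%), with a median of −0.94, which split into −2.32 against Th1 and 0.22 against Th2. Ifng, the Th1 cytokine gene, was at most 0.0615 FPKM in WT iTreg, against 12.4 in Th1 and 0 in Th2, and was not called. Lower in WT iTreg than in both helpers were Runx3, with 3.88, 3.12 and 3.88 FPKM in WT iTreg against 55.2 and 51.1, and the IL-12 receptor chain gene Il12rb1, with 2.5, 2.37 and 3.34 against 53.3 and 49.3. The other 4 were Il12rb2, Gzmb, Tnf (−2.27) and Fasl (−0.94). Higher were the IL-18 receptor chain gene Il18r1, with 50.3, 54.3 and 56 FPKM in WT iTreg against 12.8 in Th1 and 0.124 in Th2, and the chemokine receptor genes Cxcr6 (2.61) and Cxcr3 (1.54, limma adjusted p = 0.048).

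Gata3, the Th2 factor, had 8.96, 9.77 and 8.75 FPKM in WT iTreg, against 9.77 in Th1 and 102 in Th2. WT iTreg and Th1 overlapped, and only Th2 was higher, so the difference from both was not called (limma adjusted p = 0.152). The difference from the single Th2 library alone was −3.41. Il4 was at most 0.081 FPKM in WT iTreg, against 0.118 in Th1 and 18.6 in Th2, and Il13 was listed at 0 in the 3 WT iTreg libraries and Th1, against 6.02 FPKM in Th2. Neither was called. Of 17 Th2 programme genes tested, 1 was called higher (5.88%, beside 34.6% of all loci) and 6 lower (35.3%, beside 34.3%). The median was −1.75, or −0.54 against Th1 and −3.18 against Th2. The 6 were Nfil3, Asb2, Ccr4, Il4ra, Rad50 and Il24, of which the cytokine gene Il24 was listed at 0 in the 3 WT iTreg libraries, against 2.01 FPKM in Th1 and 31.4 in Th2. Ccr4, a skin-homing chemokine receptor gene, had 10.7, 12.3 and 10.6 FPKM in WT iTreg, against 29.1 and 105 in Th1 and Th2. Maf was the member that rose: it had 40.7, 49.1 and 40.5 FPKM in WT iTreg, against 2.56 and 0.959 in Th1 and Th2, beside 159 in Th17 (difference 4.37, limma adjusted p = 0.00022). It is also used by Th17 and regulatory cells.

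Of 16 Th17 programme genes tested 8 were called higher (50%, beside 34.6% of all loci) and 4 lower (25%, beside 34.3%), with a median of 0.94. The median level of the list, as log2(FPKM + 0.5), was 3.45, 3.34 and 3.32 in WT iTreg, against 1.38 in Th1 and 0.75 in Th2, beside 6.27 in Th17. The cytokine gene Il17f had 11.4, 9.16 and 8.67 FPKM in WT iTreg, against 0 and 0.191 in Th1 and Th2, beside 668 in Th17 (difference 4.11, limma adjusted p = 7.22e-05). Il17a reached 0.72, 1.3 and 0.957 FPKM in WT iTreg, against 0 and 0.096, beside 145 in Th17. Both cytokine genes were therefore detected above the helper values but far under those of the Th17 library. Ccl20, Il6ra, Ccr6, Maf and Tmem176b were also called higher. Irf4, Batf, Stat3 and Hif1a, factors of activated T cells in general, were called lower, with Irf4 at 13.2, 12.8 and 17.6 FPKM in WT iTreg, against 162 and 251 in Th1 and Th2.

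Genes of naive and resting T cells were mostly higher in WT iTreg. All 30 listed were tested, 22 were called higher (73.3%, beside 34.6% of all loci), 4 lower (13.3%, beside 34.3%) and 4 neither, with a median of 1.53. S1pr1, which lets T cells leave lymph nodes (chromosome 3, 115413351 to 115417973, minus strand), had 277, 276 and 271 FPKM in WT iTreg, against 30.0 in Th1 and 7.05 in Th2, beside 182 in naive cells (difference 4.18, SE 0.57, limma adjusted p = 0.00182). Its activator Klf2 had 242, 261 and 235 FPKM in WT iTreg, against 24.5 and 35.1 in Th1 and Th2, beside 336 in naive cells. Tcf7, which encodes the factor TCF-1 of naive and memory T cells, had 585, 605 and 555 FPKM in WT iTreg, against 93 and 69.7 in Th1 and Th2, beside 635. In all 3 genes every WT iTreg level lay well above both helper cultures, while against naive cells S1pr1 was higher and Klf2 and Tcf7 were lower. Klf3, Actn1, Cd55, Cd27 and Slfn2, which keeps T cells quiescent, rose by 3.24, 3.46, 3.61, 2.39 and 2.23. The lymph node homing gene Ccr7 had 454, 459.6 and 447 FPKM in WT iTreg, against 382 in Th1 and 245 in Th2. The call of Ccr7 (0.57, limma adjusted p = 0.039) was lost without any one WT iTreg replicate. Dapl1, Satb1, Foxo3 and Bach2 were lower, Bach2 with 17.9, 17.7 and 17.2 FPKM in WT iTreg, against 26.2 and 24.1 in Th1 and Th2.

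Every gene in the list for DNA replication and mitosis was lower in WT iTreg. All 31 were tested and all 31 were called lower (100%, beside 34.3% of all loci). Differences lay between −0.29 for Ccne1 and −3.99 for Aurkb, with a median of −2.49. A separate list of replication-dependent histone genes went both ways, with a median of −0.59. Of its 12 tested members 2 were called higher (16.7%, beside 34.6% of all loci) and 6 lower (50%, beside 34.3%). Top2a, the topoisomerase that untangles chromosomes in mitosis (chromosome 11, 98854261 to 98885503, minus strand), had 15.3, 15.9 and 16.8 FPKM in WT iTreg, against 212 in Th1 and 260.0 in Th2, beside 0.997 in naive cells. Ccna2, the S and G2 phase cyclin A2 gene, had 6.79, 6.79 and 6.97 FPKM in WT iTreg, against 74.6 and 100.2 in Th1 and Th2, beside 0.276 in naive cells. WT iTreg thus lay between naive and helper cells in both, with differences from the helpers of −3.84 and −3.56 (limma adjusted p = 2.52e-05 and 4.24e-05). The mitotic kinase genes Cdk1 and Plk1 fell by 3.41 and 3.17, while the replicative helicase genes Mcm2 to Mcm7 fell by between 1.15 and 2.29. Whether mitotic and replication genes differed by unequal amounts was not tested.

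The promoters of these genes were looked at because they moved together. The letters TTTGAA, known as the cell cycle homology region of genes used in mitosis, occurred on either strand in 11 of 27 proliferation genes with a promoter window (40.7%), in 14% of the loci called lower, 10.6% of those called higher, 11.7% of all tested loci and 18.1% of all promoters. The E2F-type letters TTTGGCGC occurred in 4 of 27 (14.8%), against 1.14% of all tested loci and 0.537% of all promoters, and TTTCCCGC in 3 of 27 (11.1%), against 2.21% and 1.11%. The windows run from 250 bases before to 50 after the RefSeq start (GRCm38.p6), none of these motifs is contained in another, though the E2F-type letters can overlap at their ends. Shown are the 250 bases before the start of Top2a and Cdk1, each with 2 copies of TTTGAA, and of Mcm6, with 2 copies of TTTGGCGC. Capitals mark these letters (TTCAAA is TTTGAA on the other strand). Top2a lies at chr11:99024190-99024439, Cdk1 at chr10:69352913-69353162 and Mcm6 at chr1:128359706-128359955, all on the minus strand. A match describes the letters and not a site in use.
Top2a: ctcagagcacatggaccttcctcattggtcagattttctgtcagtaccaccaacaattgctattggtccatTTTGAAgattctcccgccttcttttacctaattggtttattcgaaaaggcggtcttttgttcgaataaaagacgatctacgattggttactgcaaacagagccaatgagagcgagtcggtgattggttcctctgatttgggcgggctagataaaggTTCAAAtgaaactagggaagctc
Cdk1: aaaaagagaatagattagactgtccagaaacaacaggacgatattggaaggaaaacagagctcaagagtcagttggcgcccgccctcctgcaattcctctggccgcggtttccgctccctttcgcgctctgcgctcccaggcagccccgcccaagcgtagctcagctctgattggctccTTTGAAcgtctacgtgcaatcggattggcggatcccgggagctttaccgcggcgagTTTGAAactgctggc
Mcm6: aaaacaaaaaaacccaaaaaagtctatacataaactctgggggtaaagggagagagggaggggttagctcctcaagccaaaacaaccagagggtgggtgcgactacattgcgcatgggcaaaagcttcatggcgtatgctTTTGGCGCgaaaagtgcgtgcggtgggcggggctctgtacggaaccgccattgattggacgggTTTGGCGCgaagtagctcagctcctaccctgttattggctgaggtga

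Among genes that hold back the cell cycle, 12 tested members went both ways, 3 higher (25%, beside 34.6% of all loci) and 5 lower (41.7%, beside 34.3%). Cdkn1a, which encodes p21, was lower with 2.65, 5 and 3.25 FPKM in WT iTreg, against 82.1 and 86.4 in Th1 and Th2, and Cdkn2c, Cdkn2d, Rbl1 and Tob2 were lower as well. Btg1, an antiproliferative gene of resting lymphocytes, had 266, 262 and 252 FPKM in WT iTreg, against 83.5 and 64.2 in Th1 and Th2, and it, Btg2 and Rbl2 were higher. Cdkn1b, which encodes p27, was not called (0.20).

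Glycolysis and hypoxia genes had the lowest median of the lists with at least 10 tested members. All 27 listed were tested and called lower in WT iTreg (100%, beside 34.3% of all loci). The median was −3.58, and it was −3.57 against Th1 and −3.58 against Th2. Slc2a3, the high-affinity glucose transporter GLUT3 (chromosome 6, 122677827 to 122692763, minus strand), had 11.6, 11.2 and 11.4 FPKM in WT iTreg, against 461 in Th1 and 523 in Th2, and fell by 5.37 (SE 0.072, limma adjusted p = 1.11e-05). Hk2, the hexokinase of proliferating cells, had 0.447, 0.261 and 0.772 FPKM in WT iTreg, against 44.3 and 65.6 in Th1 and Th2. Slc16a3, which exports lactate, had 2.58, 2.57 and 3.25 FPKM in WT iTreg, against 165 and 172. Transcripts of all 3 were thus low in WT iTreg, and those of Aldoa, Pgk1 and Pkm2, enzymes in between, fell by 3.60, 4.90 and 3.06. Aldoc, the aldolase C gene, fell most, by 6.81. Hif1a, the oxygen-regulated factor gene, had 20.5, 20.1 and 21.4 FPKM in WT iTreg, against 201 and 143 in Th1 and Th2, and its target Egln3 had 4.39, 5.03 and 5.42, against 292 and 257. Pdk1, which keeps pyruvate from mitochondria, differed least (−0.44). Gapdh, Tpi1 and other enzyme genes have many pseudogene copies, so levels from unique reads are uncertain for them.

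The median level of the 27 genes, as log2(FPKM + 0.5), was 3.59, 3.55 and 3.57 in the WT iTreg libraries, against 7.55 in Th1 and 7.52 in Th2, beside 6.12 in Th17 and 3.53 in naive cells. The summed FPKM of the list was 927, 892 and 1006 in WT iTreg, against 10295 in Th1 and 10577 in Th2, beside 732 in naive cells. WT iTreg thus lay far nearer to naive cells than to either helper culture on both measures, with a somewhat higher sum than naive cells. Proliferation genes had medians of 2.89, 3.03 and 3.09 in WT iTreg, against 5.49 in Th1 and 6.13 in Th2, beside 0.53 in naive cells. Naive and quiescence genes had medians of 6.30, 6.33 and 6.22 in WT iTreg, against 5.12 in Th1 and 4.79 in Th2, beside 6.84 in naive cells.

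**Figure D3:**
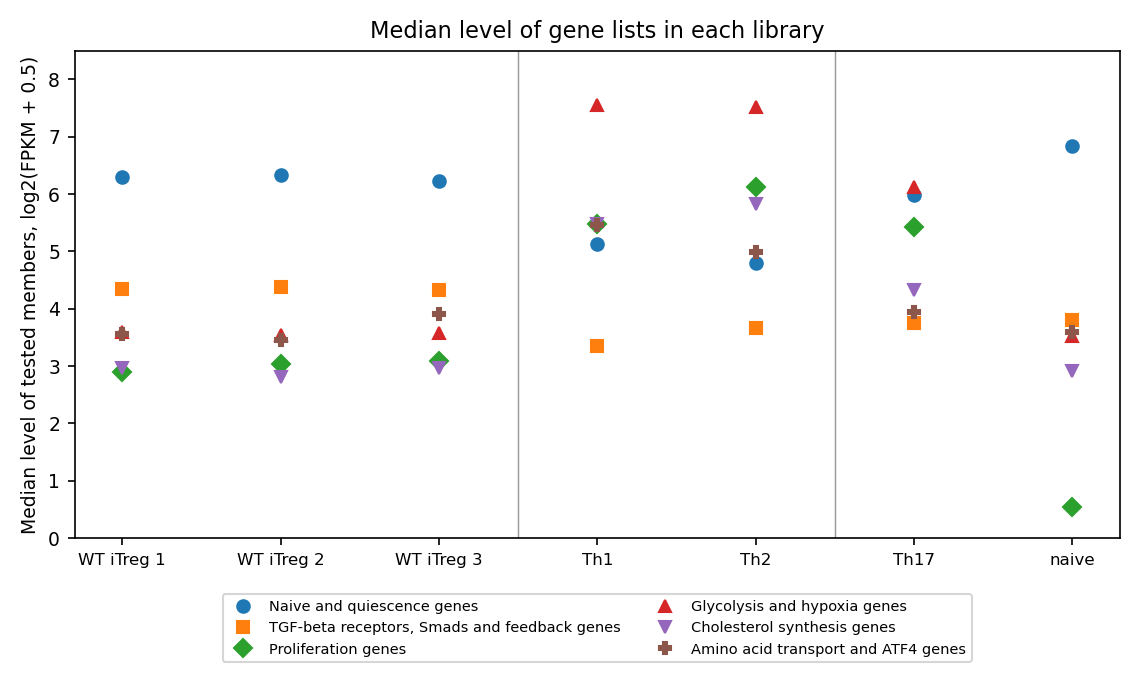
Median log2(FPKM + 0.5) of the tested members of 6 gene lists in each of the WT iTreg, Th1, Th2, Th17 and naive libraries. The glycolysis median is between 3.55 and 3.59 in WT iTreg and 3.53 in naive cells, against 7.55 in Th1 and 7.52 in Th2, while the proliferation median of WT iTreg lies between those of naive and helper cells.

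Lipid and amino acid supply followed. Of 23 tested cholesterol synthesis genes 22 were called lower (95.7%, beside 34.3% of all loci) and Ebp was not, with a median of −2.69. Hmgcs1 was listed at 0 in all 5 libraries and not tested. Fdps, farnesyl diphosphate synthase, had 9.78, 10.0 and 11.1 FPKM in WT iTreg, against 154 in Th1 and 154 in Th2 (difference −3.84, limma adjusted p = 1.19e-05). Srebf2, which encodes the factor that drives these genes, had 59.5, 57.5 and 57.3 FPKM in WT iTreg, against 120.4 and 128 in Th1 and Th2. Of 19 amino acid transport and ATF4 genes 17 were called lower (89.5%, beside 34.3% of all loci), with a median of −1.45. Asns, asparagine synthetase, had 0.385, 0.43 and 0.966 FPKM in WT iTreg, against 45.6 and 28.9 in Th1 and Th2, and the serine synthesis gene Psat1 5.57, 5.18 and 7.6, against 102 and 93.3. The amino acid transporter genes Slc1a5 and Slc38a2 were the members not called. Of 13 reference genes often used for scaling, 1 was higher (7.69%, beside 34.6% of all loci) and 5 lower (38.5%, beside 34.3%). Among the lower ones was Tfrc, the transferrin receptor for iron uptake, which fell by 3.39. Actb, the β-actin gene, had 1472, 1427 and 1419 FPKM in WT iTreg, against 1455 and 1518 in Th1 and Th2, and was not called.

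Of 17 inhibitory and costimulatory receptors tested 2 were called higher (11.8%, beside 34.6% of all loci) and 8 lower (47.1%, beside 34.3%), with a median of −0.67. Cd96, a receptor for the poliovirus receptor that Tigit also binds, had 90.9, 97.9 and 87.1 FPKM in WT iTreg, against 3.36 and 5.09 in Th1 and Th2 (difference 4.31, limma adjusted p = 4.63e-05), the opposite direction to Tigit. Slamf6 was the other rise (1.27). Cd200, Pdcd1lg2 (PD-L2), Btla and Slamf1 fell by 3.08, 2.91, 1.87 and 1.42, and Pdcd1, the PD-1 gene, was not called at 18.3, 16.2 and 22 FPKM in WT iTreg, against 23.5 and 9.38 in Th1 and Th2. In the TNF family 4 of 21 tested were higher (19%, beside 34.6%) and 9 lower (42.9%, beside 34.3%). The 4 were Cd27, Tnfrsf25 (DR3), Tnfrsf1b (TNFR2, common on Treg) and Ltb, with Tnfrsf1b at 49, 48.8 and 47.2 FPKM in WT iTreg, against 22.7 and 17 in Th1 and Th2.

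Of 22 listed chemokine and homing receptors 15 were tested, 10 were called higher (66.7%, beside 34.6% of all loci) and 2 lower (13.3%, beside 34.3%), with a median of 1.54. Beside Ccr6 and S1pr1 stood Cxcr5, which guides cells to B cell follicles, with 9.89, 7.17 and 8.87 FPKM in WT iTreg, against 0.195 and 0.077 in Th1 and Th2. B cells also express Cxcr5, its WT iTreg values had the same order as the B cell sums (67.9, 11.8 and 37.8 FPKM), and the part of B cells in its level was not tested. Ccr9, for the small intestine, had 1.44, 1.54 and 0.958 FPKM in WT iTreg, against 0.0114 and 0.0113 in Th1 and Th2. Lower were Ccr4 and Gpr183 (−2.02). Of 13 integrin genes 6 were higher (46.2%, beside 34.6%) and 5 lower (38.5%, beside 34.3%), with a median of 0.040 that was −0.0115 without the filter on low values. Itgb7, the partner of αE and α4 in gut homing, had 218, 219.8 and 219.8 FPKM in WT iTreg, against 96.6 and 66.4 in Th1 and Th2, and Itga4 28.3, 28.8 and 26.1, against 6.65 and 3.39. Itga3, Itgb1, Itgb5, Itgav and Itga5 were lower.

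**Figure D4:**
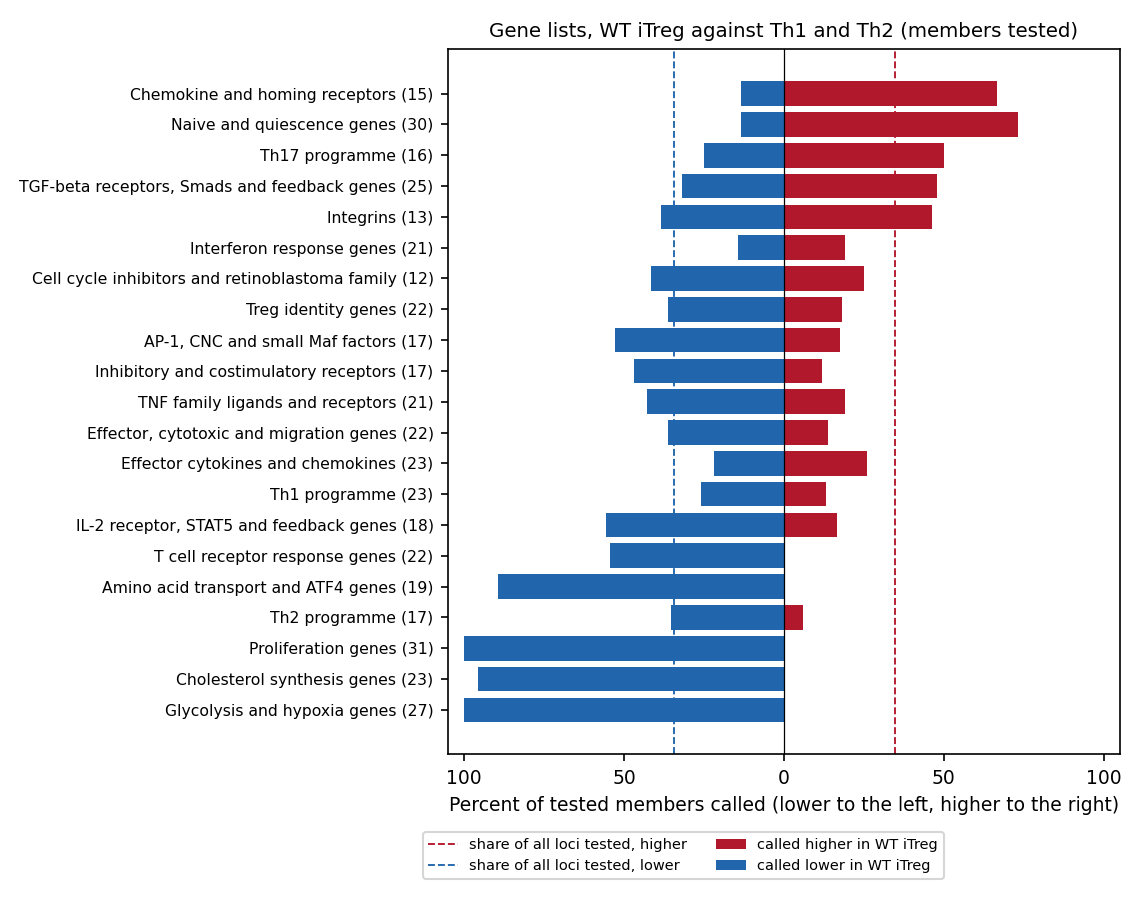
Percent of the tested members of each gene list called lower (left, blue) and higher (right, red) in WT iTreg against Th1 and Th2, with the number tested in parentheses. Dashed lines mark the shares over all loci tested, 34.6% higher and 34.3% lower, and the bars of glycolysis and proliferation reach 100% on the lower side.

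Genes induced by antigen receptor stimulation were lower in WT iTreg or not called, while all 5 cultures had the same coated antibodies. Of 22 tested response genes 0 were called higher (0%, beside 34.6% of all loci) and 12 lower (54.5%, beside 34.3%) by limma, with a median of −1.25. Nr4a1, an immediate early gene that tracks receptor signal strength, had 19.1, 10.8 and 21.5 FPKM in WT iTreg, against 82.3 and 71.6 in Th1 and Th2. Egr1 had 14.1, 6.16 and 10.6 FPKM in WT iTreg, against 56.4 and 75.4 in Th1 and Th2. In both genes WT iTreg replicate 2 was lowest, though all 3 lay under the helper values. Myc, which drives growth, had 23.6, 22.1 and 27.7 FPKM in WT iTreg, against 68.8 and 41.9 (difference −1.12, limma adjusted p = 0.00758). No gene of the list was higher at an unadjusted p under 0.05 either. Of 17 AP-1, CNC and small Maf factors tested, 3 were higher (17.6%, beside 34.6% of all loci) and 9 lower (52.9%, beside 34.3%). The 3 were Maf, Mafk and Bach1. Fosl2 had 0.793, 0.843 and 1.41 FPKM in WT iTreg, against 51.8 and 40.7 in Th1 and Th2, Junb 33, 29.9 and 36.3, against 199.8 and 225, and Batf3 at most 0.0635, against 6.77 in Th1 and 59.9 in Th2.

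Of 21 interferon response genes tested 4 were called higher (19%, beside 34.6% of all loci) and 3 lower (14.3%, beside 34.3%). Their median split by helper culture, −1.05 against Th1 and 1.14 against Th2, and against both it was −0.080, which turned to 0.010 and 0.167 under quantile and equal-sum scaling. Gbp2, an interferon-γ induced GTPase gene, had 36.7, 29.7 and 43.9 FPKM in WT iTreg, against 765 in Th1 and 67.8 in Th2, and was not called. Ifit2 and Ifit3 were higher, Ifit3 with 2.63, 2.16 and 2.17 FPKM in WT iTreg, against 0.0525 and 0.0517 in Th1 and Th2. Irf7 (2.48) and Irf9 (0.69) were the other rises, and Usp18, Bst2 and Psmb8 were lower.

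Effector and cytotoxic genes had 3 of 22 tested higher (13.6%, beside 34.6% of all loci) and 8 lower (36.4%, beside 34.3%), and their median of −0.69 was 0.28 without Th1. Ctsw, cathepsin W, had 372, 375 and 346 FPKM in WT iTreg, against 38.9 in Th1 and 3.2 in Th2 (difference 4.91, limma adjusted p = 0.00685), and S100a4 had 4.94, 7.55 and 5.75, against 0.16 in Th1 and 0 in Th2. Lgals1 and Cd44 fell by 1.68 and 1.00. Of 23 effector cytokines and chemokines 6 were higher (26.1%, beside 34.6%) and 5 lower (21.7%, beside 34.3%). Beside Xcl1, Il17a, Il17f, Ccl20 and Ltb, the chemokine gene Ccl1 was higher, at 2.31, 2.57 and 4.61 FPKM in WT iTreg and listed at 0 in Th1 and Th2. Il24, Lif, Csf1, Osm and Tnf were lower, with Tnf at 2.95, 2.1 and 3.66 FPKM in WT iTreg, against 17.3 and 14 in Th1 and Th2. The promoter of Gzmb, the most lowered autosomal gene by the naming rule, holds 1 copy of TGANTCA, the letters AP-1 and Bach2 bind, 58 bases before the start (GRCm38.p6, chr14:56262335-56262584, minus strand). Its 250 bases before the start are shown with those letters in capitals. The same letters occurred in 4.63% of loci called higher, 4.51% of those called lower, 4.6% of all tested loci and 7.93% of all promoters.
Gzmb: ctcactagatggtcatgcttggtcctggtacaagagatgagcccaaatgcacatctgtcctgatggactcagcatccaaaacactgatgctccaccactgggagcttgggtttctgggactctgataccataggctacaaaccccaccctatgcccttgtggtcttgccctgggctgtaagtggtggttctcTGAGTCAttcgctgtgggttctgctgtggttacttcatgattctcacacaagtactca

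Bach2 binding, measured in 1 ChIP library of WT iTreg cells with no replicate, was about as frequent at loci called in either direction as at all tested, which share this single library. A deposited peak summit lay within 10 kb of the start of 42.5% of loci called higher, 41.9% of those called lower and 41.3% of all tested with a known strand. Within 2 kb the shares were 21.4%, 22.1% and 21.4%. Foxp3 had 3 peaks within 10 kb, Il2ra 7, Smad7 4, Lag3 3 and Tnfrsf9 3, while Itgae and Gzmb had 0.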

How the data were processed

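RNA was sequenced as unique 50-bp reads from TruSeq libraries, and the authors aligned them with TopHat to mm9 and computed FPKM with Cufflinks, per the labels' protocols. No source used here gives versions, the annotation or whether strand was used, so overlapping and antisense genes cannot be told apart. The deposited Bach2 peak list, called by MACS 1.4.0beta at a p cutoff of 1e-05 per the file headers, holds a score, a tag count and a fold enrichment ratio for each of 22494 peaks, all the authors' values. Read numbers implied by the confidence intervals were whole (within 0.02) at only 73.9% to 75% of loci with few such reads and a single listed start site, so no counts were recovered. Loci of at least 300 bp whose WT iTreg and helper means average at least 0.5 FPKM (11430) were fitted with limma 3.58.1 (variance trend) in R 4.3.3 on log2(FPKM + 0.5), 3 WT iTreg against 2 helper libraries, with Benjamini-Hochberg adjustment over all loci. The fit was tested on simulated data in which Th1 and Th2 did not differ and few loci were changed, unlike these data. The genes named by rule are the 12 largest called and separated differences each way with at least 5 FPKM in the higher class, a fixed set of lineage genes and up to 4 members of each list. Other genes are examples picked after their values were seen. The members and the 30 lists were chosen with earlier results of these data known. Bach2 knockout iTreg libraries entered 1 alternative fit only. Promoters and their sequences are RefSeq's. A few genes of the lists are not reported here.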

Additional observations from a re-analysis of the deposited data

How the results depend on the processing

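No paired analysis was possible because Th1 and Th2 have 1 library each, so the classes share fewer than 2 replicate numbers. Among the alternatives, a gap of at least 2-fold left 1061 loci separated higher and 1477 lower, and calls of at least 2-fold numbered 1483 higher and 1979 lower. Leaving out 1 library at a time gave 4760 to 5501 loci separated higher, 4675 to 5532 lower, 3217 to 4617 called higher and 3302 to 4641 called lower. Equal FPKM sums moved the median of all loci by 0.23 and the calls to 5131 higher and 3067 lower, 62.6% higher against 50.3%. Quantile scaling gave 4396 and 3549. Autosomal loci alone, an alternative chosen after seeing the data, gave 3857 and 3758. Medians of lists that changed sign were those of the Th1 programme without Th1 (1.08, and −2.32 without Th2), cell cycle inhibitors without a filter (0.0094), integrins without a filter (−0.0115), interferon genes under quantile scaling (0.010), equal sums (0.167), without WT iTreg replicate 2 (0.036) and without Th1 (1.13, and −1.05 without Th2), effector genes without Th1 (0.282, and −0.789 without Th2), reference genes under quantile scaling (0.172), equal sums (0.203) and without Th1 (0.024, and −0.063 without WT iTreg replicate 1), myeloid markers (−0.955) and histones (0.035) at a filter of 2 FPKM, and mast and erythroid markers without Th2 (−0.044, and 0.705 without Th1). The cause was not tested, apart from the samples or genes each alternative leaves out. Among named genes, Ikzf4 lost its call without any 1 WT iTreg replicate, Ccr7 also without a filter (0.080), at any length (0.051) and without the trend (0.053), and Tgfb1 with equal sums (0.0751). Cd79b, Ms4a1, H2-Eb1, Ciita and Cd8b1 lost theirs under at least 1 alternative. Tbx21, Ifng, Gata3, Il4, Il13 and Nrp1 were called only with group means or against 1 helper. With 1 library each, Th1 and Th2 have no replicate error of their own. Depth limits levels near 0, and the 13900000 to 14000000 implied reads, summed over part of the loci, give it only in part.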
